A study of Mus musculus with 21 samples.

Results

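The miR-17 to miR-92a cluster is a group of miRNAs cut from 1 primary transcript, that of the non-coding host gene Mir17hg. Its rows were taken by name from the deposited table of mature miRNAs: miR-17-5p, miR-18a-5p, miR-18a-3p, miR-19a-3p, miR-19b-3p, miR-20a-5p, miR-92a-3p and miR-92a-5p, 8 of 1125 rows. Small RNA was sequenced from whole kidney of male BALB/c mice aged 12 weeks after injection of folic acid, 250 mg/kg in sodium bicarbonate, a dose that injures the renal tubules. The 7 groups are day 0 and, after folic acid, days 1, 2, 3, 7, 14 as well as 28. Each has 3 libraries, 21 in all. The labels give the same strain, sex, age, agent and dose for every group. The treatment text is shared by all samples and does not say whether mice of day 0 were injected, and no later day has an untreated group here. A difference from day 0 therefore cannot be told apart from an effect of injection, of the bicarbonate or of the time of collection. Nothing in the labels ties libraries to separate mice, and p-values measure only the spread between these libraries, which may be technical.

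MiRNAs act in Argonaute complexes, where the seed, bases 2 to 8 from the 5′ end, pairs with target mRNAs and lowers their stability or translation. The cluster is known as a target of MYC and E2F transcription factors and as a promoter of proliferation and survival in dividing cells. Its members fall into seed families with different known targets: the miR-17 and miR-18 families repress cell cycle inhibitors and parts of TGF-beta signalling, and the miR-92 family represses integrin alpha 5 and Klf transcription factors. In kidney the cluster is known to be needed by nephron progenitors and to promote cyst growth in polycystic disease. The table holds miRNAs only, so cell division itself was not measured.

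In GRCm38 the 6 hairpins of the cluster lie within 836 bases, at chr14:115043671-115044506 on the plus strand, in exon 2 (chr14:115043271-115046727) of Mir17hg. The deposited table gives no coordinates, and the build named in the submitters' processing notes is mm9, so these positions come from RefSeq and GENCODE and not from the files. The mature sequences below, from RefSeq for GRCm38.p6, show which members share a seed (capitals), since each seed family is described as a unit:
miR-17-5p: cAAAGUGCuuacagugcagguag
miR-20a-5p: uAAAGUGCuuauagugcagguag
miR-18a-5p: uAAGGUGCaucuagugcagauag
miR-18a-3p: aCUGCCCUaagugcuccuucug
miR-19a-3p: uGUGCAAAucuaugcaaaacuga
miR-19b-3p: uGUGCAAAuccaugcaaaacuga
miR-92a-3p: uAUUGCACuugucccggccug
miR-92a-5p: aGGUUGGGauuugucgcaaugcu
The 8 rows hold 6 seeds, because miR-17-5p shares one with miR-20a-5p and miR-19a-3p shares one with miR-19b-3p. Counted from 1 at the 5′ end, miR-19b-3p differs from miR-19a-3p only by U11C, and miR-20a-5p differs from miR-17-5p by C1U and C12U. How the authors treated reads that match several rows is not given in the sources used here, so the split between such near-identical rows is uncertain.

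The mature miR-92a-3p and miR-19b-3p are each encoded a second time, in the paralogous cluster on the X chromosome, so their reads cannot be assigned to a locus. The 2 precursors of miR-92a are shown with both mature arms in capitals, because the arm ratio below depends on them; Mir92-1 lies in the cluster at chr14:115044427-115044506 and Mir92-2 at chrX:52741838-52741928 on the minus strand:
Mir92-1: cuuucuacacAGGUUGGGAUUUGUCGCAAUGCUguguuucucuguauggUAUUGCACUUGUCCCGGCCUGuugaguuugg
Mir92-2: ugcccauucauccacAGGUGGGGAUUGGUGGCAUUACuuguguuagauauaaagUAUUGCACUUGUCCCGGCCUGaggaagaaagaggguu
The 3′ arms are identical and the 5′ arms are not. The row named miR-92a-5p does not name its precursor, and the sequence printed for it is that of the chromosome 14 precursor, miR-92a-1-5p.

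Levels are in CPM, reads scaled to the same total of miRNA reads in every library, and rescaled between libraries by TMM (trimmed mean of M values). Libraries held 2875675 to 7110546 such reads, and 431 miRNAs, all 8 members among them, passed a filter on low counts. Fold changes are differences of log2(CPM + 1) in limma, which understates the change of scarce miRNAs, and calls were made at a Benjamini-Hochberg adjusted p under 0.05, taken over all 431. The kidney label was checked with 6 tubule miRNAs, whose summed level at day 0 was 195489 to 224314 CPM, against 22.3 to 36.7 CPM for 4 rows typical of liver, striated muscle and neurons.

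All 8 members rose by day 1 and were higher than day 0 on days 2, 3 and 7 as well. The background share of tested miRNAs called higher on these days was 14.2%, 24.4%, 30.4% and 29.7%. On each of these days the 3 libraries of every member lay above its 3 libraries of day 0, against 18.1%, 30.9%, 31.6% and 31.1% of all tested miRNAs. The median log2 difference over the 8 members was 1.31, 1.37, 1.23 and 1.22 in the same order, where the median over all tested miRNAs was -0.00, 0.02, 0.06 and 0.07. All 8 members also passed limma's F test over all days, as did 63.1% of all tested miRNAs. The 4 comparisons share the day 0 libraries. Fewer or more cells of a type and less or more RNA per cell cannot be told apart in whole tissue.

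**Figure D1:**
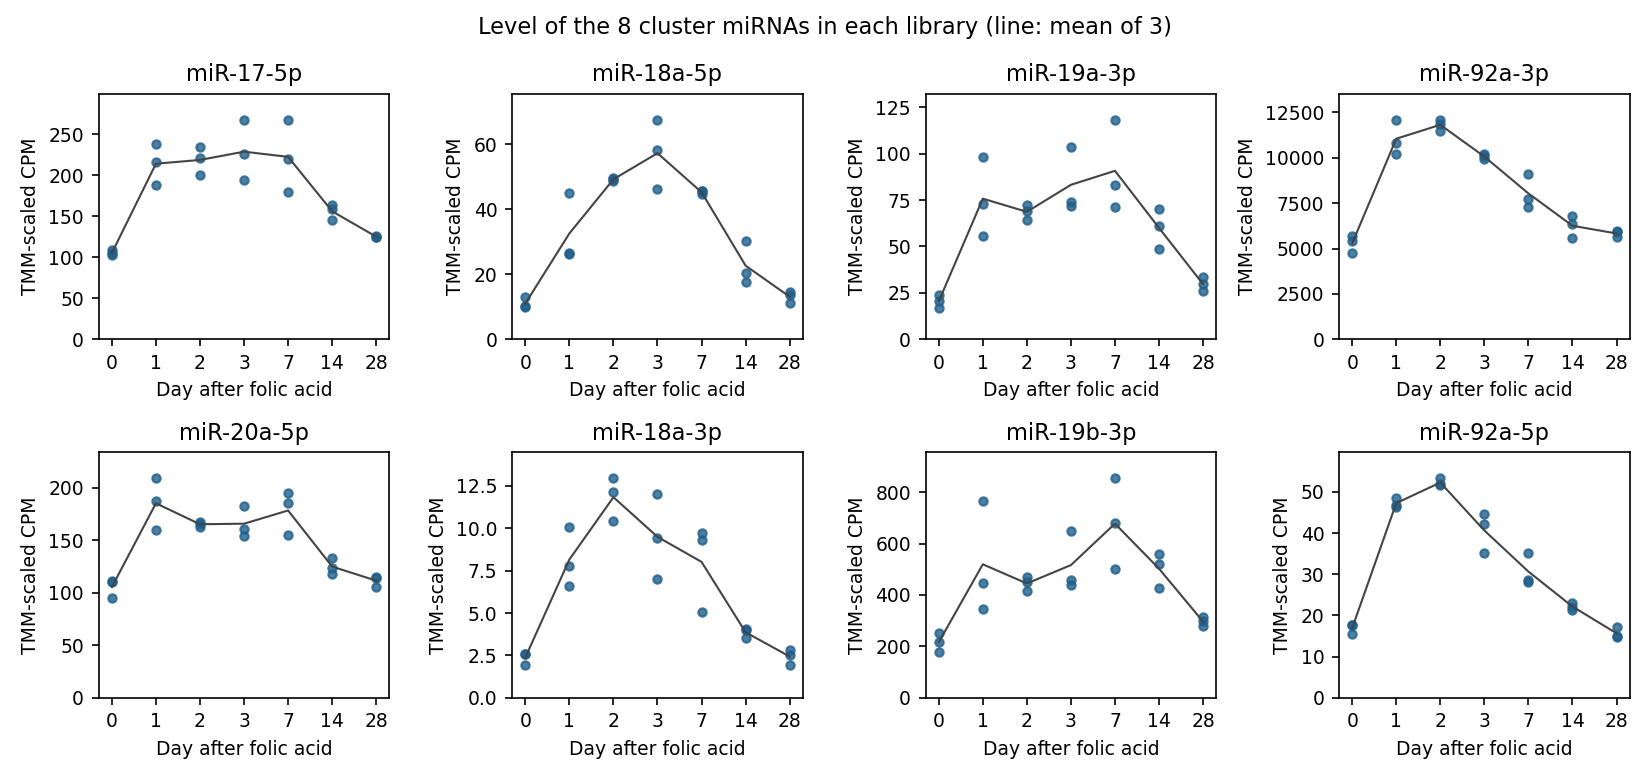
Level of each of the 8 cluster miRNAs (TMM-scaled CPM, y axis from 0, a scale of its own in each panel) in every library against the day after folic acid (x axis, spacing not to scale); points are libraries and the line joins the means of 3. On days 1, 2, 3 and 7 all points of every panel lie above those of day 0.

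miR-17-5p and miR-20a-5p, the miR-17 seed pair, are known repressors of cell cycle inhibitors such as Cdkn1a. miR-17-5p measured 102, 105 and 108 CPM at day 0, given here and below from the lowest to the highest library. Day 1 gave 188, 216 and 238 CPM, day 2 gave 200.4, 222 and 234, day 3 gave 194, 226 and 267, and day 7 gave 179, 220.3 and 267. On day 14 it was at 146, 158 and 164 CPM, and on day 28 at 125, 125 and 126. miR-17-5p thus stayed near a level from day 1 to day 7 and was still above all day 0 libraries on day 28. Its log2 fold change was 1.01 on day 1 (SE 0.13, limma adjusted p = 1.05e-05) and highest on day 3, at 1.10 (adjusted p = 1.23e-06).

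miR-20a-5p began at the same level, 94.6, 110.4 and 112 CPM at day 0. Day 1 gave 159, 187 and 209 CPM, day 2 gave 162, 166 and 168, day 3 gave 154, 161 and 182, and day 7 gave 155, 186 and 195. By day 14 it measured 117, 124 and 133 CPM and by day 28 105.6, 114 and 115. Its rise was the smallest of the 8 on days 1, 2 and 3, with a log2 fold change of 0.80 on day 1 (SE 0.12, limma adjusted p = 2.96e-05) and 0.65 on day 3 (adjusted p = 0.000122). On day 7 the smallest was that of miR-92a-3p.

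miR-18a-5p, known for repressing Ctgf and Smad transcripts of TGF-beta signalling, was scarce at day 0, with 9.85, 10.1 and 13.0 CPM. The day 1 libraries held 26.2, 26.4 and 45.1 CPM, those of day 2 held 48.7, 49.4 and 49.5, those of day 3 held 46.2, 58.1 and 67.5, and those of day 7 held 44.5, 45.5 and 45.7. It then lay at 17.6, 20.3 and 30.2 CPM on day 14 and at 11.3, 13.5 and 14.5 on day 28, the last overlapping day 0. Its log2 fold change of 2.27 on day 3 (SE 0.20, limma adjusted p = 1.40e-08) was the largest of any member on any day. The other arm of its hairpin, miR-18a-3p, measured 1.91, 2.61 and 2.61 CPM at day 0, which is 9 or 10 reads a library. It was highest on day 2, at 10.4, 12.2 and 12.9 CPM (log2 fold change 1.93, SE 0.23, adjusted p = 1.21e-06), and was back at 1.92, 2.54 and 2.85 CPM on day 28.

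miR-19a-3p and miR-19b-3p form the miR-19 seed family. miR-19a-3p measured 16.9, 20.6 and 23.8 CPM at day 0 and 55.8, 73.1 and 98.3 on day 1. The day 2 libraries held 64.5, 69.4 and 72.1 CPM, those of day 3 held 71.9, 74.1 and 104, and those of day 7 held 71.1, 82.8 and 118. Day 14 then gave 48.4, 61.3 and 70.2 CPM and day 28 gave 25.8, 29.8 and 33.5. No later library of miR-19a-3p fell into the range of day 0 in these TMM-scaled levels. In CPM before TMM scaling, replicate 2 of day 28 held 22.47, inside the day 0 range of 16.77 to 22.96. Its log2 fold change was the largest of the 8 on day 1, at 1.81 (SE 0.21, limma adjusted p = 1.40e-06), and on day 7, at 2.08 (adjusted p = 6.21e-08).

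miR-19b-3p, the more abundant of the pair, measured 179, 218 and 251 CPM at day 0. On day 1 it was at 345, 446 and 767 CPM, the highest of them in replicate 3, the shallowest library of the series. Day 2 gave 416, 449 and 469 CPM, day 3 gave 439.8, 459.7 and 649, day 7 gave 499.7, 679 and 854, day 14 gave 427, 519 and 561, and day 28 gave 279, 297 and 313. Both miR-19 members were highest on day 7, where miR-19b-3p had a log2 fold change of 1.62 (SE 0.23, limma adjusted p = 5.38e-06). Its libraries of days 1, 3 and 7 spread widely, and the estimate for day 7 against day 3, 0.38 (adjusted p = 0.406), did not pass.

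miR-92a-3p, known for repressing Itga5 and Klf2, made up most of the cluster. Its level was 4747, 5434 and 5681 CPM at day 0. The day 1 libraries held 10231, 10829 and 12092 CPM, those of day 2 held 11494, 11887 and 12068, and those of day 3 held 9933, 10082 and 10185. Day 7 gave 7265, 7716 and 9130.3 CPM, day 14 gave 5599.8, 6376 and 6791, and day 28 gave 5635, 5920.1 and 5941. The level was highest on days 1 and 2 and overlapped day 0 on days 14 and 28. Its log2 fold change was 1.06 on day 1 (SE 0.098, limma adjusted p = 5.38e-08), 1.16 on day 2 (adjusted p = 1.09e-08) and 0.60 on day 7 (adjusted p = 3.67e-05).

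miR-92a-5p, the far scarcer arm, moved with it. It measured 15.4, 17.7 and 17.8 CPM at day 0. Day 1 gave 46.3, 46.9 and 48.5 CPM, and day 2 gave 51.6, 51.9 and 53.3. Later it was at 35.1, 42.1 and 44.6 CPM (day 3), 28.1, 28.6 and 35.3 (day 7), 21.4, 21.9 and 23.1 (day 14), and 14.8, 14.9 and 17.3 (day 28). Libraries of days 1 and 2 were close together and far above day 0. The log2 fold change was 1.43 on day 1 (SE 0.12, limma adjusted p = 2.49e-08) and 1.57 on day 2 (adjusted p = 4.48e-09). Over the 21 libraries the log2 levels of both miR-92a arms had a Pearson r of 0.97, the highest of any pair of members, and miR-19b-3p with miR-92a-3p the lowest, 0.52. These values describe libraries that share a time course and carry no p.

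**Figure D2:**
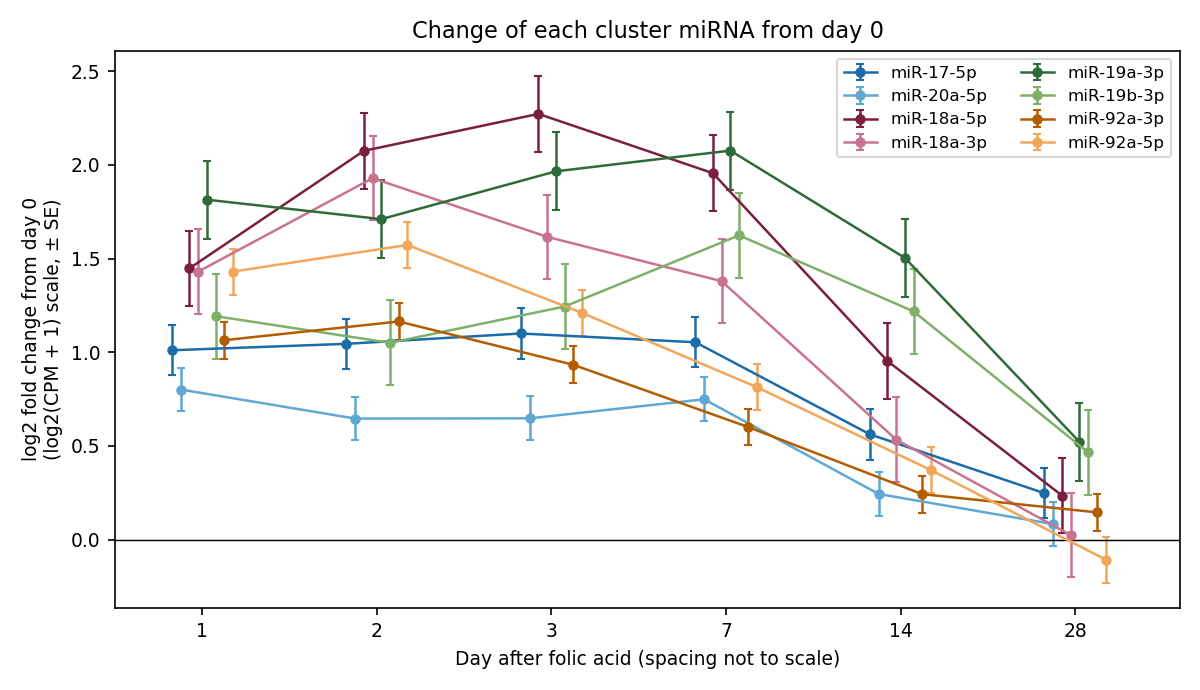
Log2 fold change of each cluster miRNA from day 0 (y axis, log2(CPM + 1) scale, limma estimate ± SE from a fit over 21 libraries) against the day after folic acid (x axis, spacing not to scale). All lines lie above 0 from day 1 to day 14; miR-18a-5p reaches 2.27 on day 3, miR-92a-3p and miR-92a-5p are highest on day 2 and both miR-19 lines on day 7.

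The question of how long the rise lasted gave different answers for different members. On day 14, 5 of the 8 were called higher than day 0 (25.1% of all tested miRNAs): miR-19a-3p at a log2 fold change of 1.503 (limma adjusted p = 8.09e-06), miR-19b-3p at 1.22 (0.000240), miR-18a-5p at 0.95 (0.000723), miR-17-5p at 0.56 (0.00201) and miR-92a-5p at 0.37 (0.0185). The call of miR-92a-5p was lost without replicate 1 of day 0 (0.29) or replicate 3 of day 14 (0.33), by DESeq2 (0.34), with no filter (0.35) and in a fit of the 2 days alone (0.35). The other 3 had positive estimates that missed the threshold, miR-18a-3p 0.53 (0.0607), miR-20a-5p 0.24 (0.0977) and miR-92a-3p 0.24 (0.0520). miR-92a-3p was called with library totals (0.29), with a replicate block (0.24), without replicate 2 of day 0 (0.29) or without replicate 2 of day 14 (0.32), and miR-18a-3p with a pseudocount of 0.25 (0.66). On day 14 the 2 miR-19 members held 72.4% and 75.0% of their highest log2 difference, miR-17-5p 51.0%, miR-18a-5p 42.0%, miR-20a-5p 30.4%, and miR-92a-3p and miR-92a-5p 20.8% and 23.6%. The highest day was picked from the same data, so these shares are descriptions.

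By day 28 limma called none of the 8 higher than day 0, where 11.1% of all tested miRNAs were called higher. miR-19a-3p alone had an unadjusted p under 0.05, and edgeR and DESeq2 on recovered reads also called 0. The estimates ranged from -0.11 for miR-92a-5p (95% interval -0.36 to 0.15) to 0.52 for miR-19a-3p (0.09 to 0.96). That of miR-19b-3p was 0.47 (-0.01 to 0.94), that of miR-17-5p 0.25 (-0.03 to 0.53) and that of miR-92a-3p 0.15 (-0.06 to 0.35). miR-18a-5p was at 0.24 (-0.19 to 0.66), miR-20a-5p at 0.08 (-0.16 to 0.33) and miR-18a-3p at 0.02 (-0.44 to 0.49); with upper-quartile scaling the estimates of miR-20a-5p and miR-18a-3p were below 0. The 3 libraries of miR-17-5p, miR-19a-3p and miR-19b-3p still lay above day 0, a separation seen upward in 21.6% of tested miRNAs. For miR-19a-3p the separation was absent in the CPM before TMM scaling.

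Between neighbouring days up to day 7 no member was called by limma, where 2.78% of tested miRNAs were called from day 1 to day 2, 5.34% from day 2 to day 3 and 1.86% from day 3 to day 7. In each step 2 members had an unadjusted p under 0.05. edgeR called 0 in each, and DESeq2 called miR-92a-5p lower from day 2 to day 3 (-0.43) and no other. miR-18a-5p had an estimate of 0.63 from day 1 to day 2 (limma adjusted p = 0.0988), called without replicate 2 of day 1 (0.87). miR-92a-3p had -0.23 from day 2 to day 3 (limma adjusted p = 0.268), called in a fit of the 2 days alone (-0.27). From day 3 to day 7 miR-92a-3p had -0.33 (limma adjusted p = 0.0785). That step was called with library totals (-0.41), with upper-quartile scaling (-0.42) and without replicate 1 of day 7 (-0.43). With upper-quartile scaling miR-92a-5p was called in it too (-0.48).

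From day 7 to day 14, 6 of the 8 fell (3.25% of tested miRNAs called lower): miR-18a-5p by 1.00, miR-18a-3p by 0.85, miR-20a-5p by 0.51, miR-17-5p by 0.49, miR-92a-5p by 0.44 and miR-92a-3p by 0.36 on the log2 scale. miR-19a-3p (-0.57, limma adjusted p = 0.137) and miR-19b-3p (-0.41, 0.376) did not pass. This count rests on few libraries: it was 0 without replicate 2 of day 14, 1 without replicate 1 of day 14 or of day 7, 3 without replicate 3 of day 7, and 0 in a fit of the 2 days alone. From day 14 to day 28 miR-19a-3p fell by 0.98, miR-19b-3p by 0.75, miR-18a-5p by 0.72 and miR-92a-5p by 0.48 (7.66% of tested miRNAs called lower), and the count was 1 without replicate 3 of day 14, replicate 1 of day 28 or replicate 2 of day 28.

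The late course, averaged over days 7, 14 and 28, was compared with the early course, averaged over days 1, 2 and 3. Of the 8 members 7 were lower late, where 17.6% of tested miRNAs were. miR-92a-5p fell by 1.04 (SE 0.071, limma adjusted p = 4.97e-10), miR-18a-3p by 1.01, miR-18a-5p by 0.88 and miR-92a-3p by 0.72 on the log2 scale. miR-19a-3p fell by 0.46, miR-17-5p by 0.43 and miR-20a-5p by 0.34. miR-19b-3p had a difference of -0.06 (95% interval -0.33 to 0.21, adjusted p = 0.758).

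The members are encoded in 1 transcript, but reads of miR-19b-3p and miR-92a-3p may also come from their X-linked copies. Ratios between members within a library do not depend on how libraries are scaled. Log2 ratios of deposited CPM + 1 were compared between day 0 (3 libraries) and all later days (18 libraries) with an exact two-sided permutation test, whose smallest possible p is 0.000752, for 15 ratios in all. miR-20a-5p was level with miR-17-5p at day 0, with CPM ratios from 0.924 to 1.06, and lay below it in all 18 later libraries, for example from 0.683 to 0.830 on day 3. The log2 ratio was lower by 0.31 on the later days than at day 0 (exact permutation p = 0.000752, adjusted p = 0.00282), and below all day 0 libraries in 18 of 18.

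miR-19a-3p gained on miR-17-5p. Its CPM ratio to miR-17-5p was 0.165 to 0.219 at day 0 and 0.376 to 0.442 on day 7, and the log2 ratio was 0.76 higher on later days (exact permutation adjusted p = 0.00376, above all day 0 libraries in 17 of 18). miR-18a-5p over miR-17-5p had CPM ratios of 0.0909 to 0.127 at day 0, 0.238 to 0.257 on day 3 and 0.0899 to 0.116 on day 28. Over all later days its log2 ratio was 0.65 higher (exact permutation adjusted p = 0.0648, above day 0 in 13 of 18), and it passed without replicate 1 of day 0 (0.78), with a pseudocount of 0.25 (0.70) and for days 2, 3 and 7 only (1.03). The ratios of miR-19b-3p (0.30, adjusted p = 0.169, above in 11 of 18) and miR-92a-3p (-0.14, adjusted p = 0.417, below in 6 of 18) to miR-17-5p did not pass this exact permutation test.

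After these values had been seen, 7 ratios were also compared between days 7, 14 and 28 and days 1, 2 and 3 (9 libraries each, exact two-sided permutation test). Here and in the test against day 0, single libraries were permuted, and the 3 libraries of a day were treated as independent. miR-19b-3p over miR-17-5p was 0.37 higher on the late days (exact permutation adjusted p = 0.0204) and miR-92a-3p over miR-17-5p 0.29 lower as a log2 ratio, from 5.64 to 5.34 (exact permutation adjusted p = 0.0343). miR-92a-3p made up 91.7% ± 1.41 of the summed CPM of the 8 members at day 0 (SD, n = 3), 92.1% ± 0.431 on day 2, 86.6% ± 1.804 on day 7 and 90.8% ± 0.452 on day 28. miR-19b-3p went from 3.79% ± 0.878 at day 0 to 7.24% ± 1.30 on day 7 and 7.10% ± 1.45 on day 14. The 8 members together held 0.546% ± 0.0353 of all miRNA reads at day 0, 1.39% ± 0.0857 on day 2 and 0.576% ± 0.0239 on day 28.

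**Figure D3:**
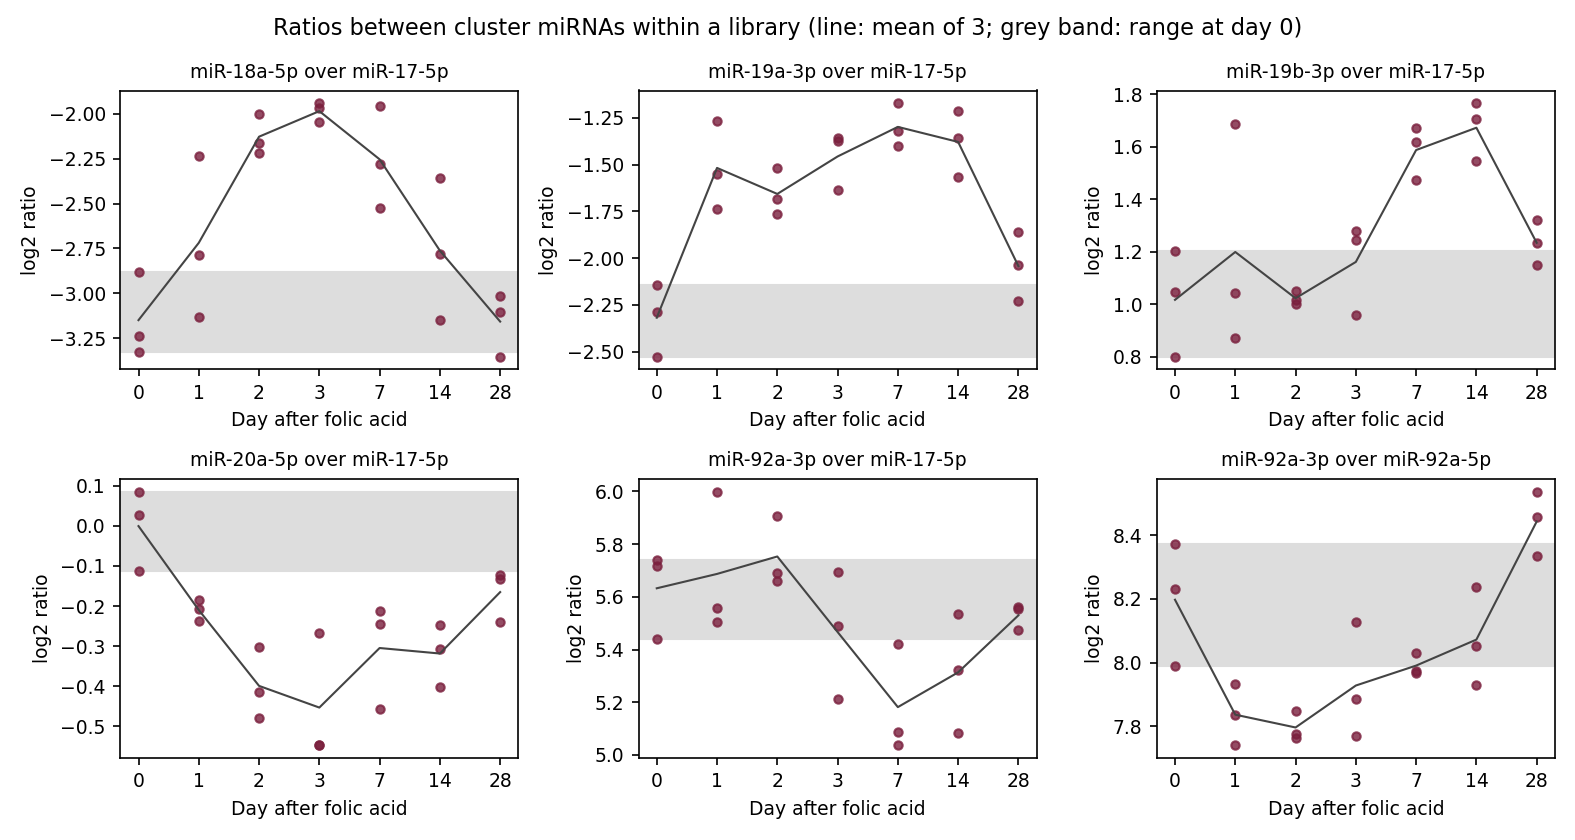
Log2 ratio of deposited CPM + 1 of 2 cluster miRNAs within each library (y axis, a scale of its own in each panel, not from 0) against the day after folic acid (x axis, spacing not to scale); points are libraries, the line joins means of 3 and the grey band spans the day 0 libraries. All later points of miR-20a-5p over miR-17-5p lie below the band and all but 1 of miR-19a-3p over miR-17-5p above it.

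Of the miR-92a arms, shown in the hairpins above, the 3′ arm outnumbered the 5′ arm by 269 to 353 times at day 0, by 221 to 234 times on day 2 and by 343 to 400 times on day 28. The log2 arm ratio did not pass the test between day 0 and all later days (-0.19, exact permutation adjusted p = 0.287, below all day 0 libraries in 11 of 18), but it passed where only days 2, 3 and 7 were set against day 0 (-0.29, exact permutation adjusted p = 0.0227). It was 0.32 higher late than early, 8.17 against 7.85 (exact permutation adjusted p = 0.0112). For miR-18a the 5′ arm outnumbered the 3′ arm by 3.78 to 5.29 times at day 0 and 4.89 to 8.27 times on day 3. That ratio passed neither test (0.35 later than day 0, exact permutation adjusted p = 0.210; 0.11 late against early, exact permutation adjusted p = 0.668), and the few reads of miR-18a-3p limit it.

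Of the remaining arms of the cluster, miR-17-3p measured 12.2, 13.6 and 14.8 CPM at day 0 and 22.4, 24.1 and 24.9 on day 7, a log2 fold change of 0.77 (SE 0.16, limma adjusted p = 0.000428). Whether it rose less than miR-17-5p was not tested. miR-20a-3p, at 1.57 to 2.32 CPM at day 0, was not called on any day, with estimates from -0.09 to 0.58. miR-19a-5p and miR-19b-5p, with at most 6 and 5 reads in a library, were below the filter.

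Genomic relatives of the cluster share its seeds. Of the X-linked paralogs shown here, miR-106a-5p and miR-20b-5p differ from members at few bases. miR-363-3p has the seed of miR-92a-3p but differs from it at many other bases. The seed is in capitals:
miR-106a-5p: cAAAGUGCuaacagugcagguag
miR-20b-5p: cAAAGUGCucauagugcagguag
miR-363-3p: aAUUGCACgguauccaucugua
Counted from the 5′ end, miR-106a-5p differs from miR-17-5p by U10A alone, and miR-20b-5p from miR-20a-5p by U1C and U10C. Of 23 companion rows (other arms, both paralogous clusters and other carriers of the miR-92 seed) 14 passed the filter, 3 of them among 8 X-linked rows, and counts over those tested describe these only.

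The 3 tested X-linked rows went the other way. miR-106a-5p measured 8.86, 8.98 and 9.27 CPM at day 0 and 3.23, 3.24 and 5.50 on day 7. miR-20b-5p measured 14.3, 16.4 and 25.5 CPM at day 0 and 4.55, 6.96 and 6.98 on day 7. miR-363-3p, which carries the miR-92 seed, measured 29.0, 30.0 and 31.9 CPM at day 0 and 8.20, 13.2 and 13.6 on day 7. In these rows no library of day 7 reached the range of day 0, a downward separation seen in 27.4% of tested miRNAs. On day 7 they fell by 1.04 (SE 0.21), 1.44 (SE 0.29) and 1.33 (SE 0.23) on the log2 scale (limma adjusted p = 0.000362, 0.000277 and 7.61e-05), and all 3 were called lower on days 2, 3 and 7 alike, where 19%, 19% and 22.7% of tested miRNAs were. The day 2 call of miR-106a-5p (-0.68) was lost without replicate 1 of day 2 and with library totals. On day 28 none of the 3 was called (-0.04, -0.32 and -0.38).

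Within libraries the members therefore gained on these paralogs. miR-17-5p held 11.6 to 11.7 times the CPM of miR-106a-5p at day 0 and 40.1 to 82.5 times on day 7, and its log2 ratio was 1.41 higher on later days (exact permutation p = 0.000752, adjusted p = 0.00282, above day 0 in 18 of 18). miR-20a-5p held 4.33 to 6.79 times the CPM of miR-20b-5p at day 0 and 22.2 to 42.8 times on day 7 (log2 ratio 1.51 higher, exact permutation adjusted p = 0.00282, 18 of 18). miR-92a-3p held 149 to 196 times the CPM of miR-363-3p at day 0 and 834 to 932 times on day 2 (1.64 higher, exact permutation adjusted p = 0.00376, 17 of 18). Over miR-32-5p, another carrier of the miR-92 seed, miR-92a-3p gained 1.119 (exact permutation adjusted p = 0.00282, 18 of 18). The X-linked rows held 13 to 152 reads in a library, so single ratios are imprecise. The X-linked copy of the miR-92a hairpin lies beside miR-363 in GRCm38, and its share of the miR-92a-3p reads was not measured.

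Of the paralogs in an intron of Mcm7, a DNA replication licensing gene, the same-seed rows miR-93-5p, miR-106b-5p and miR-25-3p were not called on day 1 and rose by day 7. miR-93-5p measured 874 to 1035 CPM at day 0, 946 to 969.5 on day 1 and 1365 to 1715 on day 7. Its log2 difference from day 0 was 0.01 on day 1 (limma adjusted p = 0.955), 0.41 on day 3 and 0.66 on day 7 (SE 0.091, adjusted p = 4.94e-06). miR-25-3p, with the miR-92 seed, had differences of 0.24 on day 1 (adjusted p = 0.129), 0.62 on day 2 and 0.60 on day 7 (SE 0.11, adjusted p = 0.000155). miR-106b-5p had 0.13 on day 1 (adjusted p = 0.634) and 1.10 on day 7 (SE 0.19, adjusted p = 4.91e-05), with replicate 2 of day 7 at 319.7 CPM and the others at 156 and 165. All 6 rows of this cluster were tested, and limma called 2, 4 and 6 higher on days 1, 2 and 3, where it called 14.2%, 24.4% and 30.4% of all tested miRNAs. The later counts were 5 for day 7 (29.7% of all), 3 for day 14 (25.1%) and 0 for day 28 (11.1%). The day 1 count was 0 without replicate 3 of day 0 or replicate 2 of day 1. It was also 0 with no filter and in a fit of the 2 days alone. None of the 3 rows called on day 14 was called without replicate 3 of day 14 or in a fit of the 2 days alone.

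miR-92b-3p and miR-32-5p, which also carry the miR-92 seed, changed in opposite directions. miR-92b-3p measured 190, 209 and 234 CPM at day 0, 328, 343 and 344 on day 2 and 324, 355 and 371 on day 3, so that neither day overlapped day 0. Its log2 difference from day 0 was 0.69 on day 2 (SE 0.15, limma adjusted p = 0.00112) and 0.73 by day 3 (0.000514), then 0.41 for day 7 (0.0299) and 0.46 for day 14 (0.0189). Its day 7 call was lost with RLE or upper-quartile scaling, with no filter, by DESeq2, in a fit of the 2 days alone, and without replicate 1 or 2 of day 0 or replicate 1 of day 7. Its day 14 call was lost with no filter and without replicate 1 of day 0 or replicate 1 or 3 of day 14. miR-32-5p measured 77.9, 79.0 and 86.0 CPM at day 0 and 48.0, 52.2 and 57.8 on day 3, below every day 0 library. It was called lower at day 2 (-0.53, SE 0.12, limma adjusted p = 0.00134), day 3 (-0.61, 0.000277), day 7 (-0.42, 0.00548) and day 14 (-0.52, 0.00144). Neither was called on day 1 (-0.04 and -0.26) or on day 28 (0.43 and -0.21).

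Against the Mcm7 rows the mean ratios of the members were highest on day 1. miR-17-5p over miR-93-5p held CPM ratios of 0.102 to 0.124 at day 0, 0.199 to 0.245 on day 1 and 0.119 to 0.126 on day 28. Over all later days the log2 ratio was 0.57 higher (exact permutation adjusted p = 0.0193, above day 0 in 15 of 18), a call lost without replicate 1 (0.55) or replicate 2 (0.50) of day 0. miR-92a-3p over miR-25-3p was 3.61 to 3.91 at day 0, 6.01 to 7.39 on day 1 and 3.59 to 4.10 on day 7. That ratio (0.25, adjusted p = 0.324, above in 10 and below in 7 of 18), miR-17-5p over miR-106b-5p (0.41, adjusted p = 0.169) and miR-92a-3p over miR-92b-3p (0.25, adjusted p = 0.420) did not pass the exact permutation test over all later days. miR-17-5p over miR-106b-5p lay above all day 0 libraries in 16 of 18 and below them in 1, replicate 2 of day 7. miR-92a-3p over miR-92b-3p lay above in 9 and below in 2.

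**Figure D4:**
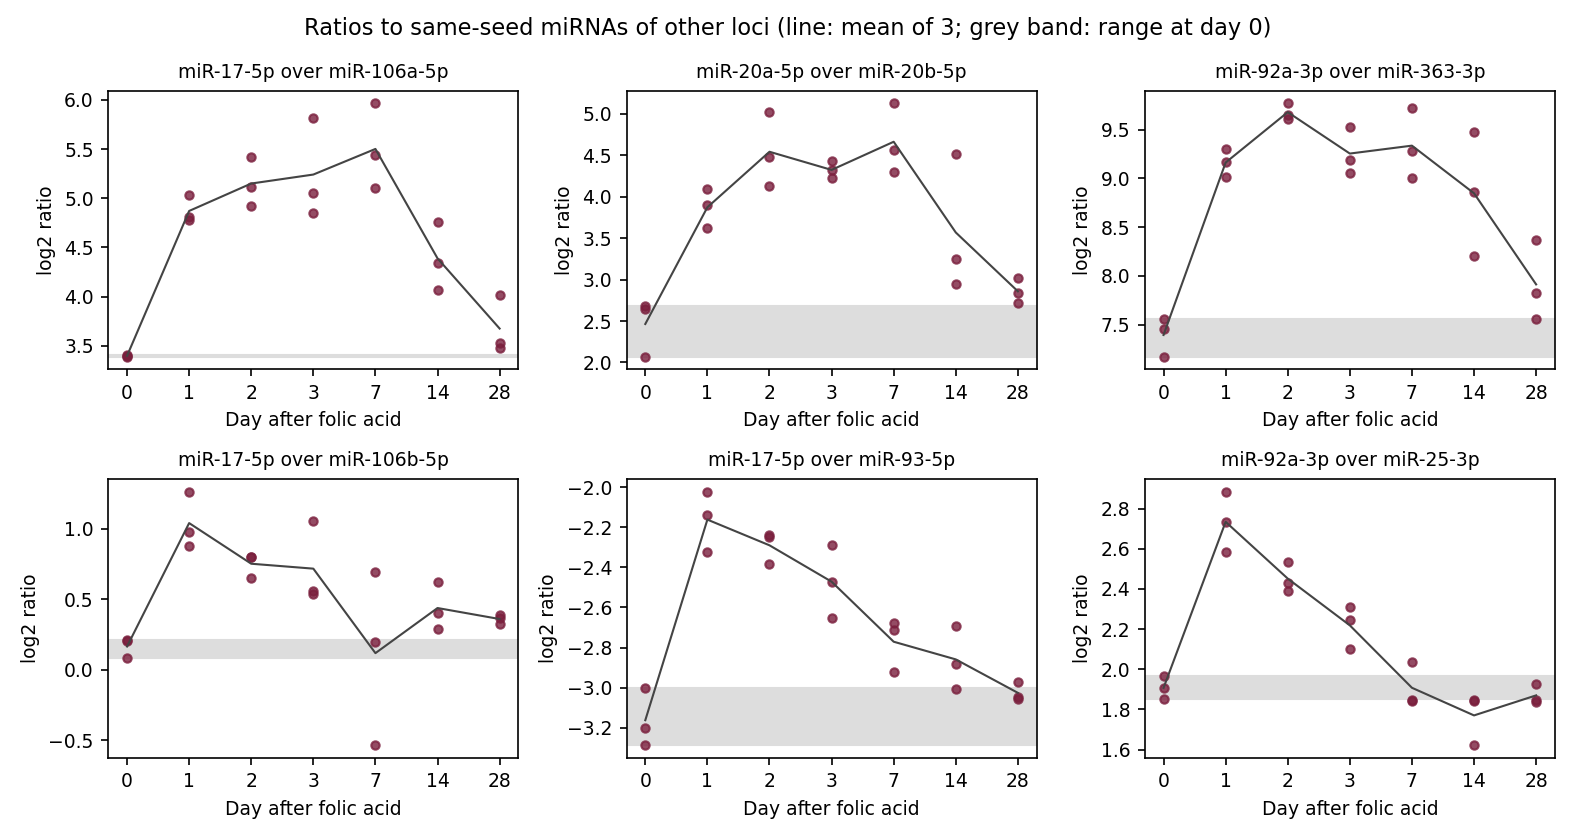
Log2 ratio of deposited CPM + 1 of a cluster miRNA over a same-seed miRNA of another locus in each library (y axis, a scale of its own in each panel, not from 0) against the day after folic acid (x axis, spacing not to scale); points are libraries, the line joins means of 3 and the grey band spans the day 0 libraries. In the upper row (X-linked paralogs) the mean of every later day lies above the band, nearest to it on day 28. In the lower row (Mcm7 intron paralogs) the mean is highest on day 1.

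Because a target site reads the seed and not the locus, levels were also summed over all rows with the same seed. Only the 840 of 1125 rows with a RefSeq sequence could be searched for a seed. For the miR-17 seed (AAAGUGC, 6 rows) the sum went from 1285 ± 73.6 CPM at day 0 to 1478 ± 64.96 on day 1 and 2135 ± 246 on day 7 (SD, n = 3). The 2 members supplied 16.4% of it at day 0, 26.9% on day 1 and 18.7% on day 7, and miR-93-5p most of the rest. For the miR-92 seed (AUUGCAC, 6 rows) the sum went from 7021 ± 636 CPM to 14385 ± 248 on day 2, and miR-92a-3p supplied 75.3% at day 0, 84.95% on day 1 and 76.3% on day 7. Among the rows searched, the miR-19 seed is carried by the 2 members alone, and its sum went from 236 ± 39.4 CPM at day 0 to 768 ± 201 on day 7. For the miR-18 seed (AAGGUGC) miR-18a-5p supplied 89.1% at day 0 and 98.8% on day 2, the rest being miR-18b-5p, at most 8 reads in a library. These sums describe the rows and were not tested.

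**Figure D5:**
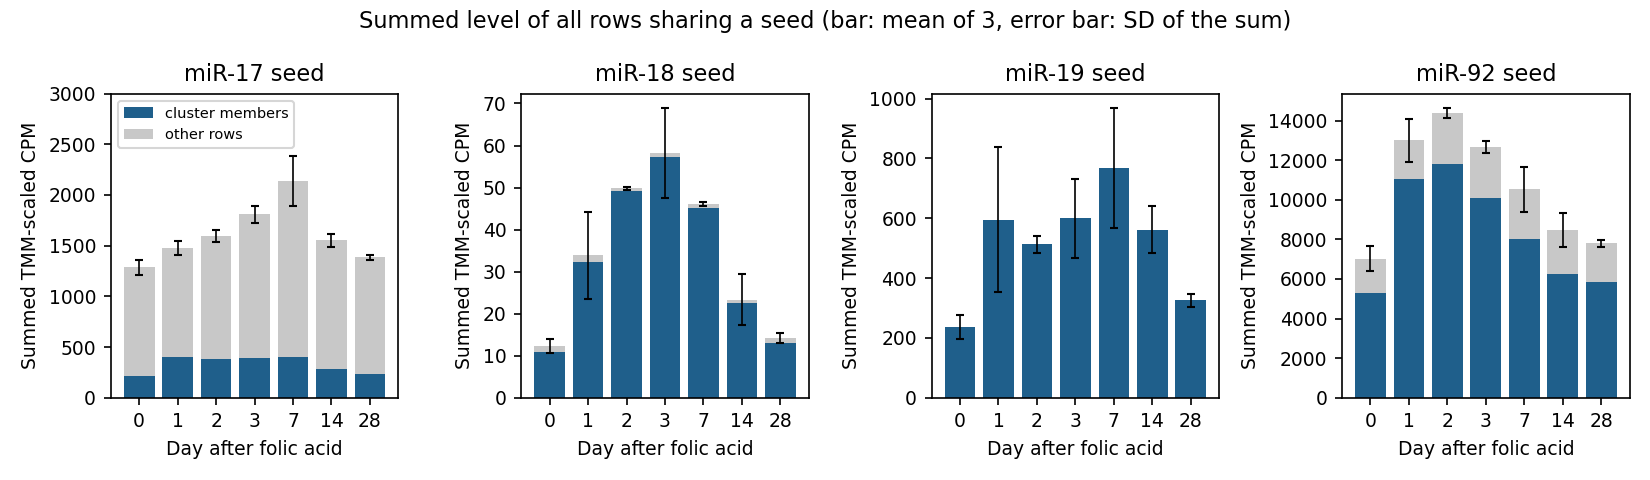
Summed level of all rows that share a seed (TMM-scaled CPM, y axis from 0, a scale of its own in each panel) on each day after folic acid (x axis, spacing not to scale); bars are means of 3 libraries, split into cluster members and other rows, with the SD of the sum. Among rows with a RefSeq sequence, members make up a minor part of the miR-17 seed and most or all of the miR-18, miR-19 and miR-92 seeds.

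Markers of other cells moved in the same tissue. The summed level of 4 erythroid rows ranged from 1294 to 3378 CPM at day 0, from 4510 to 7659 on day 1, from 4732 to 9596 on day 2 and from 1140 to 1771 on day 3. On day 7 the erythroid sum ranged from 766 to 2380 CPM. The summed level of 7 leukocyte rows ranged from 937 to 1235 CPM at day 0, from 1322 to 1506 on day 1, from 2287 to 3345 on day 7 and from 2009 to 2159 on day 28. Of these 7 leukocyte rows limma called 4 higher on day 1 (14.2% of all tested miRNAs), 6 on day 3 (30.4%) and 5 on day 28 (11.1%). On day 2 it called 5 of them higher (24.4%) and 1, miR-150-5p, lower (-0.66 on the log2 scale; 19% of tested miRNAs were lower). The sum of the 6 tubule rows was 119899 to 129765 CPM on day 7 and 169686 to 194220 on day 28. By limma, 4 of these rows were called lower and 1 higher on day 7 (22.7% and 29.7% of all tested miRNAs). On day 28, 1 was called higher (11.1%) and 0 lower (8 of 431 tested miRNAs). Of 5 mesenchymal rows, limma called 4, 3 and 4 higher on days 3, 7 and 14 (30.4%, 29.7% and 25.1% of all tested miRNAs). The median log2 differences of these rows were 0.65, 1.43 and 1.61, against 0.06, 0.07 and 0.05 over all tested miRNAs. Their summed level overlapped day 0 (64182 to 82835 CPM) on days 3, 7 and 14 and was above it on day 28, at 88324 to 90956. Both endothelial rows, miR-126-3p and miR-126-5p, were called lower on days 2, 3, 7 and 14, where 19%, 19%, 22.7% and 17.9% of tested miRNAs were. Their sum went from 13246 to 15446 CPM at day 0 to between 10549 and 11095 on day 7. Each of the rows of these 5 lists had reads on every day, and the part of such cells in the levels of the members was not tested.

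Among 286 other miRNAs whose mean reached 10 CPM, the course most like the mean course of the 6 guide-arm members (all but miR-18a-3p and miR-92a-5p) was that of miR-21-5p (Pearson r = 0.97 of log2 levels over 21 libraries). Next came miR-212-3p (0.93), miR-21-3p (0.92), miR-223-3p (0.91), miR-132-3p (0.91) and miR-28-3p (0.89). The least alike were miR-30e-3p (-0.94), miR-322-3p (-0.92) and miR-125b-3p (-0.91). miR-21-5p differed from day 0 by 2.02 on day 1, 2.37 on day 7 and 0.62 on day 28 on the log2 scale. These likenesses are descriptions over libraries that share 7 time points.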

How the data were processed

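Small RNA libraries (TruSeq small RNA kit, Illumina HiSeq, per the labels' protocols) of 21 kidney samples were read from the deposited table. The deposited values are CPM of reads assigned to mature miRNAs, made by the authors, scaled to the same total in each column. Per the submitters' processing notes, CASAVA 1.8 and build mm9 were used; for the aligner, the counting and the miRBase release, the version is not given in the sources used here. Whole reads were recovered for 100% of values within 0.05 of a read. A count of 0 allows 3 reads, 1.04 CPM in the shallowest and 0.422 CPM in the deepest library (counting error only). Replicates all differed by more than sampling noise, and the labels name no batch.

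From these values, TMM-scaled log2(CPM + 1) were tested with limma 3.58.1 (limma-trend, R 4.3.3) in 1 fit of 7 day means, for the 431 miRNAs that passed filterByExpr of edgeR 4.0.16 (minimum count 10), with Benjamini-Hochberg adjustment; the calculation was tested on simulated data. Alternatives were other scalings, pseudocount 0.25, no filter, robust variance, edgeR and DESeq2 1.42.0 on recovered reads, a replicate block, 2 days only and leaving out each library. The edgeR and DESeq2 runs on recovered reads called 8 of 8 members on days 1, 2, 3 and 7. Ratios used exact permutation tests in Python 3.11.15. The members, the companion, marker and likeness rules and the comparisons were chosen with earlier results of these data known; members are named in the comparisons against day 0, and companions where they share a seed with a member. 3 companion names of the plan (miR-19b-1-5p, miR-19b-2-5p, miR-92a-2-5p) match no row. The row miR-19b-5p stands for the miR-19b names, and no row stands for miR-92a-2-5p. RefSeq gave sequences for 840 of 1125 rows.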

Additional observations from a re-analysis of the deposited data

How the results depend on the processing

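The calls of all 8 members on days 1, 2, 3 and 7 against day 0, and the 7 in late against early, held under every alternative tried. In day 28 against day 0, 1 member was called in a fit of the 2 days only, and the miRNAs called ranged from 37 to 58 (56 with all libraries) when 1 library was left out. Estimates there turned sign for miR-18a-3p with library totals (-0.034), RLE scaling (-0.00775) and upper-quartile scaling (-0.063), and ranged from -0.079 to 0.14 without 1 library each; for miR-20a-5p they were -0.042 with upper-quartile scaling and -0.018 to 0.12 without 1 library each. That of miR-19b-3p in late against early ranged from -0.13 to 0.053 without 1 library each, and the late against early ratio of miR-19a-3p over miR-17-5p went from -0.03 to 0.21 without day 28.

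Steps between days were less stable. From day 1 to day 2, 12 miRNAs were called, 6 with no filter, 22 by DESeq2, 21 with 2 days only, and 2 to 12 without 1 library each (members 0 to 1). From day 2 to day 3 the 23 became 13 with upper-quartile scaling, 9 with no filter and 6 to 17 without 1 library each, with 1 member by DESeq2 and 1 with 2 days only. From day 3 to day 7 the 8 became 3 with no filter, 21 by DESeq2 and 4 to 21 without 1 library each, with 1 member under library totals, 2 under upper-quartile scaling and 0 to 1 without 1 library each. From day 7 to day 14 the 19 miRNAs became 0 with 2 days only and 5 to 48 without 1 library each, and the 6 members 1 with upper-quartile scaling, 2 with no filter, 0 with 2 days only and 0 to 6 without 1 library each. From day 14 to day 28 the 52 became 19 with no filter, 24 with 2 days only and 12 to 72 without 1 library each, and the 4 members 1, 2 and 1 to 4. The cause was not tested.

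Replicate numbers did not pair the libraries (mean r 0.0042 between the same numbers of different days, 15 of 63 pairs over 0.1, 6 of 21 libraries closest to their own number). With the replicate block the estimates stay as they are; miR-17-5p (-0.49) and miR-92a-5p (-0.44) lost their call from day 7 to day 14 and miR-92a-3p (0.24) gained one on day 14 against day 0. Library totals moved the median of all tested miRNAs by 0.18 on day 2 and 0.17 on day 3, and upper-quartile scaling by -0.18 on day 7 and -0.12 on day 28. The share of higher among called miRNAs was 56.0%, 56.1% and 61.5% on days 1, 2 and 3 but 70.7%, 75.3% and 74.4% with library totals, and 56.6% and 85.7% on days 7 and 28 but 45.1% and 58.0% with upper-quartile scaling.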
